A study of Mus musculus with 24 samples.

Results

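The p53 pathway was followed through 33 genes in tumours grown from the mouse squamous carcinoma line SCC7. The genes were p53 itself, its regulators and genes of its transcriptional programme, most of them known direct targets, and they were taken by symbol from a table of raw read counts for 27368 genes. All 33 were in the table and all 33 passed the filter on low counts, which kept 16560 genes for testing. Female C3H mice aged 6 to 8 weeks each received about 1000000 cells under the skin of the flank, either carrying an empty vector (NC) or overexpressing the microRNA miR-21-5p (OE). Treatment began at a tumour volume near 300 cubic mm. Radiation was given locally as 8 Gy of X-rays a day on 3 days, and olaparib, an inhibitor of the DNA damage sensor PARP, was injected at 50 mg per kg at 2 hours before each fraction and once more on the day after the last. The 24 tumours formed 8 groups of 3, namely NC and OE tumours given sham treatment, olaparib, radiation, or radiation with olaparib. Every mouse thus carried an immune system and stroma of its own around an injected line, and the labels give no time from the last fraction to collection.

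Groups were read from the letters of each tumour's coded identifier, in which S, O, I and IO were taken as sham, olaparib, radiation and both, and a leading E as OE; tumours are named by that identifier. The written treatment and cell line labels put 19 of the 24 tumours in another group. They disagree with the code about radiation for 8 tumours, about olaparib for 16 and about cell line for 8. The cell type field names the OE line for all 24. The coded reading was chosen earlier with p53 target levels in view, so the p-values below for radiation by code are not independent evidence that radiation raised these genes. Levels are reads per 1000000 counted reads (CPM) after TMM scaling, with tumours of a group listed in the order of their identifier numbers. A gene was called higher or lower at a Benjamini-Hochberg adjusted p below 0.05 in edgeR's quasi-likelihood test over all 16560 genes, and each fold change is on the log2 scale with its standard error.

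In undamaged cells the ubiquitin ligase MDM2 keeps p53 protein scarce, with help from its partner MDM4. DNA breaks activate the kinases ATM and ATR, which free p53 from MDM2 and let it bind paired half-sites in DNA near its target genes. The targets halt the cell cycle, above all through the CDK inhibitor p21 encoded by Cdkn1a, and they promote repair, change metabolism or lead to cell death. Mdm2 and Ppm1d are targets that switch the response off again.

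Promoter sequences are shown for 4 of the genes because they differ in the letters that p53 recognises and in how the gene moved after radiation. Each runs from 250 bases before a RefSeq transcript start to 50 bases after it on GRCm38.p6 (mm10), 5′ to 3′ on the strand of the gene. Capitals mark the p53 half-site, which is searched by name as 3 purines, C, a pair of A or T, G and 3 pyrimidines, reads the same on both strands and was allowed no mismatch.
Cdkn1a, upstream start, chr17:29090729-29091028, plus strand: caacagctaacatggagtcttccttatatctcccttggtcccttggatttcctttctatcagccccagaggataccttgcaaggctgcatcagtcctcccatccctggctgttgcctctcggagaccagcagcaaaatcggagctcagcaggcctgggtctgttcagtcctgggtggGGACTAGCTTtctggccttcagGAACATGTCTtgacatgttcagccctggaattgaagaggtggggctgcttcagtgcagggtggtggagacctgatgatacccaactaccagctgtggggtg
Mdm2, chr10:117710709-117711008, minus strand: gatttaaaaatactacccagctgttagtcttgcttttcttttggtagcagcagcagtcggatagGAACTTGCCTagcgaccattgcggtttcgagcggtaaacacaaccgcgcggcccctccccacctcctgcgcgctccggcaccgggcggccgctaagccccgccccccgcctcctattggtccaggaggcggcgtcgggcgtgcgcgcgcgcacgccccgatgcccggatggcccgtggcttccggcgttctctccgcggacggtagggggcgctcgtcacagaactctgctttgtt
Ccng1, chr11:40755237-40755536, minus strand: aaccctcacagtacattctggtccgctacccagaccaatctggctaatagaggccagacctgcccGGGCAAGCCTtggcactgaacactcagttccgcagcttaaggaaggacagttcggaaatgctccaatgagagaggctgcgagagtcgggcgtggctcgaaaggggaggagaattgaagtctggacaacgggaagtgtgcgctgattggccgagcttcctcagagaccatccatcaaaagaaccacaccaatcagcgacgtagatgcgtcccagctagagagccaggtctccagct
Fdxr, chr11:115276920-115277219, minus strand: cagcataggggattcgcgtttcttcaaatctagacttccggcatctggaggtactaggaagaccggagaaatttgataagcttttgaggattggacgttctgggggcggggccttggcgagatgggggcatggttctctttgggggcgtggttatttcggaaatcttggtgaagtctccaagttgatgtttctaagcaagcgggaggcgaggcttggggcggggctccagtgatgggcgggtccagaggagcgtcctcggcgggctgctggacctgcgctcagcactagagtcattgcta
By this pattern the Cdkn1a window holds a pair of half-sites, GGACTAGCTT starting 73 bases before the transcript start and GAACATGTCT starting 51 bases before it. Directly after GAACATGTCT stand the letters tgacatgttc. They miss the pattern only at their first letter, T in place of a purine, and were left unmarked. The marked pair is a match to the pattern and need not be the pair that p53 binds. Mdm2 holds 1 half-site, GAACTTGCCT, at 186 bases before the start, and Ccng1 holds GGGCAAGCCT at 185 bases before it. The Fdxr window holds none. RefSeq promoters were found for 27 of the 33 genes, 42 windows in all, and 14 windows (33.3%) hold at least 1 half-site, against 8.36% of all 32851 promoters. A pair within 13 bases of each other stands in 1 of the 42 windows, that of Cdkn1a, and in 24 of all promoters (0.073%). Of the genes with a window, a half-site stands in 9 of 17 that were called higher after radiation, 1 of 3 that were called lower and 3 of 7 that were not called. Most of the 33 are known direct targets of p53, so the comparison with all promoters is no independent test. The Aen windows overlap and count the same GGGCTTGTCC more than once. These matches describe the letters in a short window, and sites farther away were not searched.

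Libraries held 37099055 to 40004502 counted reads. Markers of the labelled tumour type were uneven, since the keratin genes Krt8 and Krt18 stood above 1 CPM in 23 of 24 tumours, while Krt5 and Krt14, keratins of basal squamous cells, were under 1 CPM in 13 and 12 tumours. 3 tumours were taken as standing apart in composition. OE tumour EIO-744 (radiation with olaparib) had Krt8 at 0.285 CPM and a summed fibroblast marker level of 126715 CPM against 3039 to 7555 in the others, NC tumour I-732 (radiation) had a summed skeletal muscle level of 13761 CPM, and the unirradiated NC tumour S-761 had a summed macrophage level of 13398 CPM against 4754 to 7959 in the other unirradiated tumours. Results that lead below are also given without these 3, a choice made after seeing the data. NC tumour I-739 (radiation) had the lowest summed macrophage level of all 24, at 2608 CPM. It was not among the 3 and is described below. In such whole-tumour RNA, fewer cells of a type and less RNA per cell cannot be told apart.

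After radiation, averaged over both cell lines with and without olaparib (12 tumours against 12), 20 of the 33 p53 genes were higher and 3 were lower. Over all tested genes 21.7% were called higher and 17.5% lower, so the count called higher was above that background and the count called lower was under it. The median log2 fold change of the 33 was 0.45, against 0.04 over all genes. The largest called changes after that of the scarce Ddit4l were in Trp53inp1, Dcxr, Cdkn1a, Btg2 and Mdm2. The 3 that were lower were Fdxr, Plk2 and Trp53 itself. Without the 3 tumours of unlike composition 16 were higher and 3 lower, with a median of 0.35, where 17% and 18.6% of the 16758 genes tested were called.

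**Figure D1:**
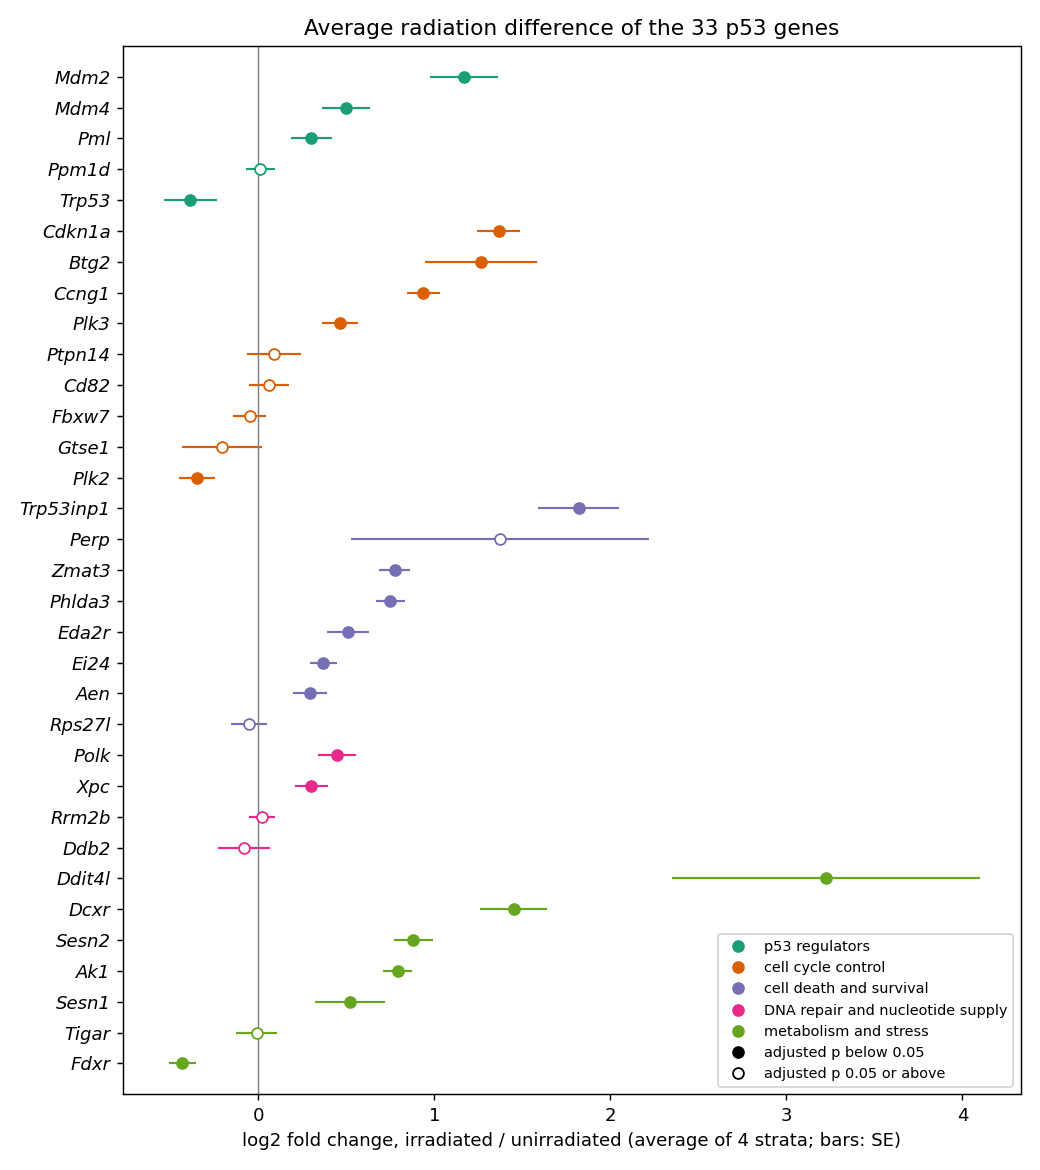
Log2 fold change of each p53 gene between irradiated and unirradiated tumours, averaged over 4 strata (x axis), with SE bars, by role in colour and with filled points for an adjusted p below 0.05. Filled points lie right of 0 for 20 genes and left of 0 for Plk2, Trp53 and Fdxr, while Perp and Ddit4l carry the widest bars.

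Of the 5 regulators 3 were higher and 1 was lower, beside 21.7% and 17.5% of all genes, so the message for p53 was lower and those for its main inhibitors were higher. In NC tumours Trp53 stood at 249, 226 and 201 CPM in sham, 221, 132 and 199.6 under olaparib alone, 119, 135 and 208 after radiation and 143, 163 and 135 after both. In OE tumours Trp53 stood at 190.1, 191 and 183 CPM in sham, 197, 189 and 192 under olaparib alone, 155, 162 and 180.5 after radiation and 161, 55.9 and 196 after both. Irradiated tumours lay below the unirradiated median in 10 of 12 cases, the groups overlapped, and tumour EIO-744 was far below the rest. Trp53 fell by 0.39 ± 0.15 (adjusted p = 0.048), a call that was lost on leaving out any of 19 single tumours, with adjusted p up to 0.0976, but held without the 3 tumours of unlike composition (-0.28 ± 0.10, adjusted p = 0.0331).

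Mdm2, which tags p53 for destruction, ran the other way. In NC tumours Mdm2 stood at 191, 169.8 and 94.6 CPM in sham, 175, 327 and 192 under olaparib alone, 414, 397 and 270.4 after radiation and 450.3, 439 and 457 after both. In OE tumours Mdm2 stood at 162, 192 and 165 CPM in sham, 165, 187 and 177 under olaparib alone, 475, 433 and 306 after radiation and 444, 139 and 675 after both. Of 12 irradiated tumours 9 exceeded every unirradiated one, and the exceptions were I-739, EI-752 and EIO-744, whereas the unirradiated NC tumour O-723 reached 327. Mdm2 rose by 1.17 ± 0.19 (adjusted p = 0.00029).

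Mdm4, the relative of Mdm2 that blocks p53's activating domain, rose less. In NC tumours Mdm4 stood at 45.2, 51.6 and 44.0 CPM in sham, 70.3, 75.6 and 64.6 under olaparib alone, 72.0, 103 and 82.2 after radiation and 116, 64.3 and 113 after both. In OE tumours Mdm4 stood at 56.1, 58.8 and 59.5 CPM in sham, 56.0, 74.0 and 58.1 under olaparib alone, 71.2, 62.1 and 61.1 after radiation and 81.0, 135 and 45.4 after both. The groups overlapped, and the highest level was in tumour EIO-744 while the lowest among irradiated tumours was in EIO-749 of the same group. Its change was 0.50 ± 0.14 (adjusted p = 0.00885), or 0.36 without tumour EIO-744.

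Pml, the scaffold of the nuclear bodies in which p53 is modified, ran from 36.2 to 84.5 CPM without radiation and from 56.0 to 103 with it, a rise of 0.30 ± 0.12 (adjusted p = 0.0461). The call on Pml was lost on leaving out any of 18 single tumours. Ppm1d, the phosphatase that turns damage signalling off, was not called. In NC tumours Ppm1d stood at 21.4, 18.7 and 14.9 CPM in sham, 19.7, 20.6 and 19.5 under olaparib alone, 21.9, 22.9 and 16.9 after radiation and 23.4, 17.4 and 23.9 after both. In OE tumours Ppm1d stood at 18.8, 21.7 and 22.3 CPM in sham, 16.5, 16.8 and 18.6 under olaparib alone, 14.9, 16.1 and 18.1 after radiation and 17.0, 21.3 and 18.4 after both. No group stood apart, and the difference of 0.01 ± 0.08 had a 95% interval of -0.15 to 0.17 and turned to -0.03 with scaling by total count.

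**Figure D2:**
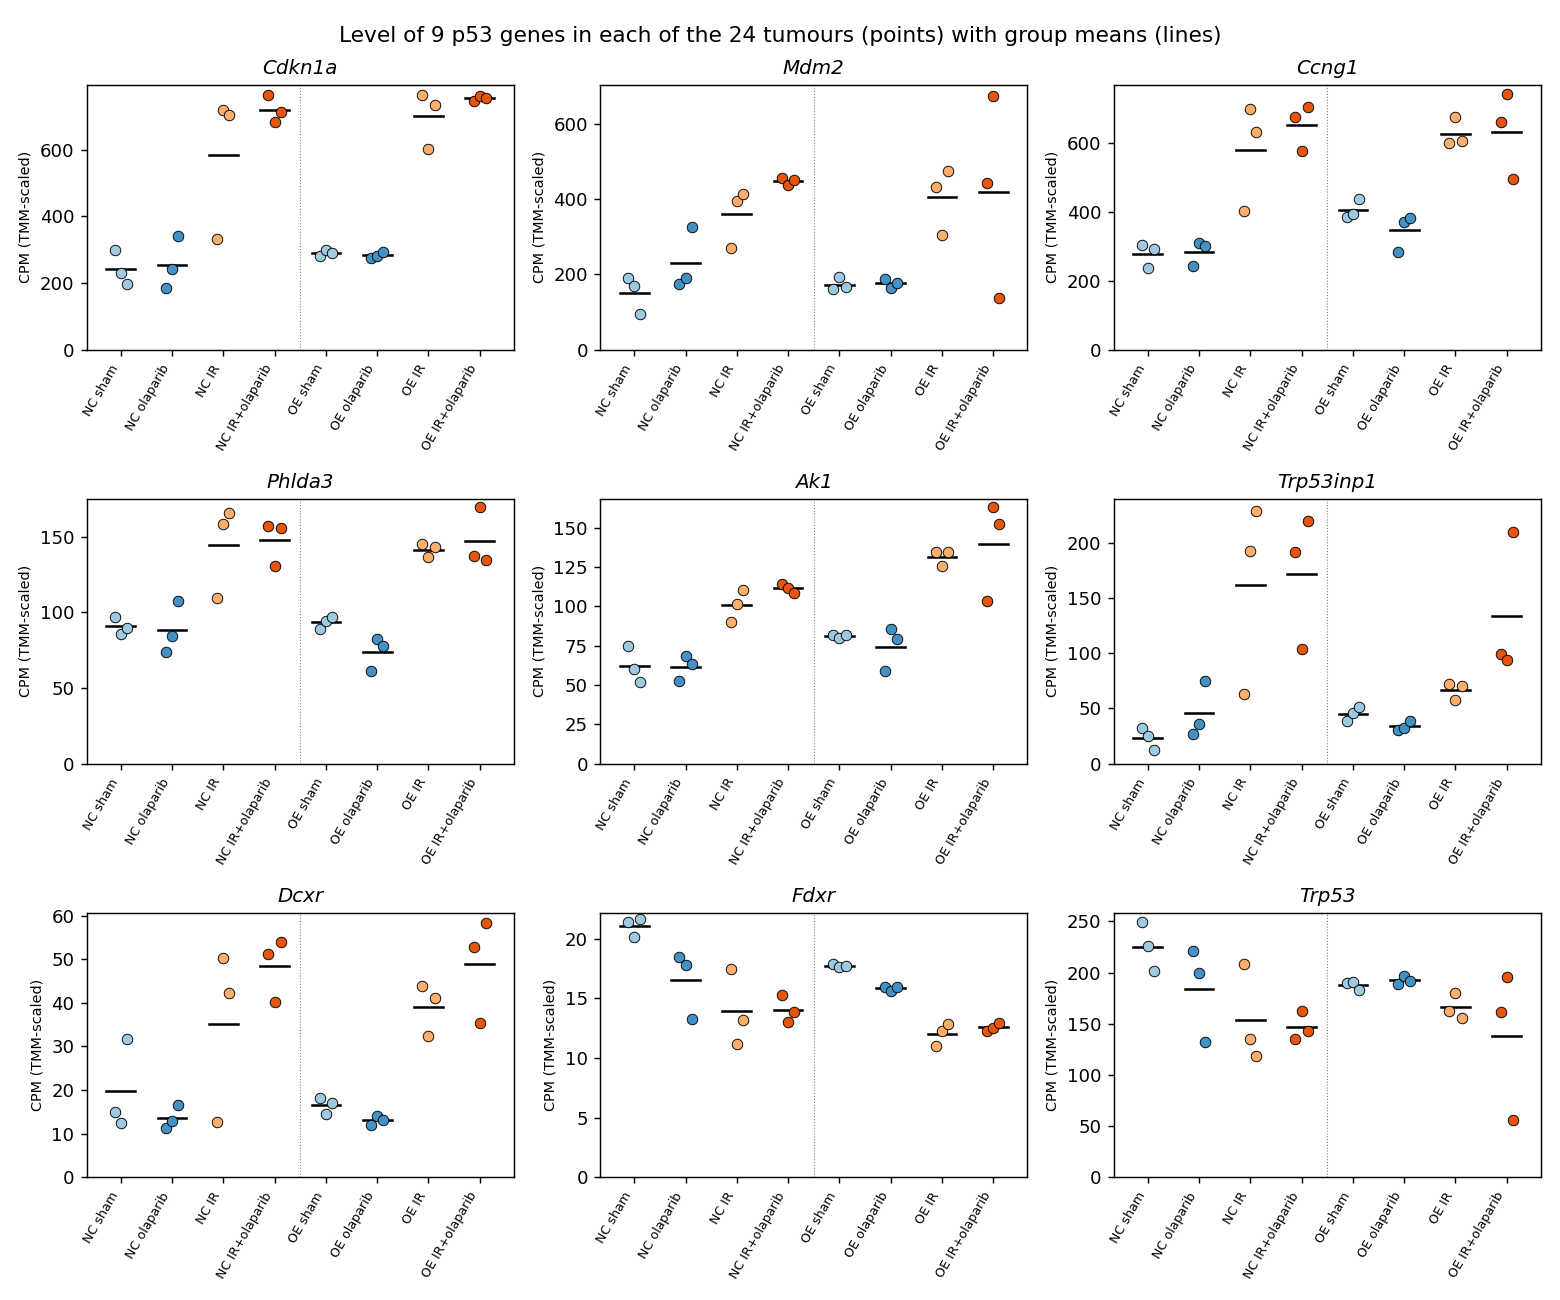
TMM-scaled CPM (y axes, from 0) of 9 p53 genes in each tumour (points) by coded group (x axes), with a line at each group mean and a dotted line between NC and OE. Cdkn1a, Ccng1, Phlda3 and Ak1 sit higher in the 4 irradiated groups, Fdxr sits lower in them, and NC tumour I-739 is the low point of its radiation group for the plotted genes that rose.

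Cell cycle genes held the gene with the smallest p of all 33 and also several that were not called, since 4 of 9 were higher and 1 was lower, beside 21.7% and 17.5% of all genes. Cdkn1a encodes p21, which binds and blocks cyclin-dependent kinases. In NC tumours Cdkn1a stood at 299.7, 229 and 197 CPM in sham, 184, 342 and 241 under olaparib alone, 705, 719 and 332 after radiation and 713.1, 682 and 765 after both. In OE tumours Cdkn1a stood at 281, 298 and 290.4 CPM in sham, 281, 276 and 293 under olaparib alone, 734, 764 and 603 after radiation and 744.8, 756 and 761.5 after both. The highest unirradiated tumour was NC tumour O-723 at 342 CPM, and all irradiated tumours but I-739 were above it, the lowest of them, OE tumour EI-752, at 603 CPM. The rise was 1.36 ± 0.12 (adjusted p = 1.62e-06), and no single tumour moved it outside 1.30 to 1.43.

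Ccng1, cyclin G1, works with a phosphatase to restore MDM2 activity. In NC tumours Ccng1 stood at 305, 238 and 292 CPM in sham, 242, 301 and 310.0 under olaparib alone, 631, 699 and 403 after radiation and 703.001, 576 and 676 after both. In OE tumours Ccng1 stood at 386, 392 and 437 CPM in sham, 371, 284 and 382 under olaparib alone, 606, 598 and 674 after radiation and 659, 495 and 742.2 after both. Again 11 of 12 irradiated tumours exceeded every unirradiated one and tumour I-739 did not, and among unirradiated tumours the OE sham group was highest. Ccng1 rose by 0.94 ± 0.10 (adjusted p = 6.24e-06).

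Btg2, an antiproliferative gene that speeds mRNA decay, ranged from 15.9 to 49.8 CPM in unirradiated and from 21.6 to 374 in irradiated tumours, with its highest value in tumour EIO-744. It rose by 1.27 ± 0.32 (adjusted p = 0.00533), and by 0.79 without that tumour. The polo-like kinase genes Plk3 and Plk2 went opposite ways. Plk3 went from 15.9 ± 2.57 CPM to 22.0 ± 4.09 (mean ± SD, n = 12 each), a rise of 0.46 ± 0.10, and all 12 irradiated tumours lay above the unirradiated median. Plk2 went from 120.1 ± 33.5 to 93.0 ± 14.9 CPM, a fall of 0.35 ± 0.10, with 11 of 12 below that median. The adjusted p was 0.00243 for Plk3 and 0.0124 for Plk2 in edgeR's test.

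Gtse1, a microtubule-binding protein of dividing cells that also holds p53 down, was not called. In NC tumours Gtse1 stood at 89.0, 85.7 and 94.1 CPM in sham, 83.7, 103 and 80.7 under olaparib alone, 39.6, 59.4 and 97.8 after radiation and 55.3, 73.7 and 58.8 after both. In OE tumours Gtse1 stood at 77.1, 71.1 and 75.4 CPM in sham, 70.8, 72.2 and 72.0 under olaparib alone, 80.4, 85.4 and 93.6 after radiation and 78.4, 11.0 and 113 after both. Of the 6 irradiated NC tumours, 4 were below every unirradiated tumour and I-739 and IO-728 were not, whereas irradiated OE tumours other than EIO-744 were above every OE unirradiated one. The average difference was -0.21 ± 0.23 (adjusted p = 0.494), and the difference between the cell lines in that change was 0.54 ± 0.46 (adjusted p = 0.68).

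Fbxw7, the part of a ubiquitin ligase that recognises cyclin E, was not called. In NC tumours Fbxw7 stood at 19.3, 20.1 and 11.8 CPM in sham, 25.4, 25.7 and 25.4 under olaparib alone, 19.2, 20.9 and 23.6 after radiation and 23.4, 23.4 and 23.6 after both. In OE tumours Fbxw7 stood at 24.3, 22.4 and 28.4 CPM in sham, 21.7, 25.5 and 19.2 under olaparib alone, 19.7, 21.7 and 17.4 after radiation and 17.9, 27.2 and 19.2 after both. Groups overlapped throughout, the difference was -0.05 ± 0.09, and its 95% interval was -0.23 to 0.13. Ptpn14, a phosphatase that restrains the growth-promoting coactivator YAP, and Cd82, a tetraspanin known as a metastasis suppressor, differed by 0.09 ± 0.15 and 0.06 ± 0.12, with intervals of -0.21 to 0.39 and -0.17 to 0.29.

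Of the cell death and survival genes 6 of 8 were higher and none was lower, beside the same 21.7% and 17.5%. Phlda3, which keeps the survival kinase AKT from the membrane, separated the groups completely. In NC tumours Phlda3 stood at 97.0, 85.5 and 89.7 CPM in sham, 73.8, 107 and 84.5 under olaparib alone, 166, 158 and 109 after radiation and 156, 131 and 157 after both. In OE tumours Phlda3 stood at 89.1, 94.4 and 97.1 CPM in sham, 82.3, 61.4 and 77.6 under olaparib alone, 143, 145 and 136 after radiation and 137, 134 and 169.6 after both. The lowest irradiated tumour, I-739, was just above the highest unirradiated one, O-723, both of them NC. The rise was 0.75 ± 0.08 (adjusted p = 9.15e-06). Of the 33 genes Phlda3 and Ak1 did not overlap between 12 irradiated and 12 unirradiated tumours, both higher, against 0.205% of all genes wholly higher and 0.429% wholly lower.

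Trp53inp1, a p53 cofactor that also promotes autophagy, had the largest change among well expressed members. In NC tumours Trp53inp1 stood at 31.9, 24.9 and 12.5 CPM in sham, 26.5, 74.9 and 35.9 under olaparib alone, 229, 193 and 62.8 after radiation and 220.2, 104 and 191 after both. In OE tumours Trp53inp1 stood at 38.6, 45.3 and 51.1 CPM in sham, 32.2, 30.6 and 38.4 under olaparib alone, 70.7, 72.2 and 57.5 after radiation and 99.0, 209.5 and 93.7 after both. Irradiated NC tumours other than I-739 reached 104 or more, while OE tumours given radiation alone stayed at or under 72.2. It rose by 1.82 ± 0.23 (adjusted p = 4.63e-05), and the difference in that rise between cell lines was -1.07 ± 0.45 (adjusted p = 0.372).

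Zmat3, an RNA-binding zinc finger gene and tumour suppressor in mice, moved with them. In NC tumours Zmat3 stood at 72.5, 59.1 and 41.0 CPM in sham, 62.1, 79.8 and 56.7 under olaparib alone, 97.0, 115 and 83.4 after radiation and 112, 114 and 131 after both. In OE tumours Zmat3 stood at 75.0, 85.0 and 80.2 CPM in sham, 71.9, 65.2 and 70.0 under olaparib alone, 116, 119.9 and 112 after radiation and 109.8, 153 and 135 after both. Tumour I-739 was the only irradiated one that did not exceed every unirradiated tumour. Zmat3 rose by 0.77 ± 0.09 (adjusted p = 1.95e-05). Smaller rises were called for Eda2r, a receptor of the tumour necrosis factor family (0.51 ± 0.12), for Ei24, an endoplasmic reticulum protein of autophagy (0.37 ± 0.08), and for Aen, a nuclease active in apoptosis (0.29 ± 0.10). Their adjusted p were 0.00363, 0.00163 and 0.024 in edgeR's test, and the call on Aen was lost on leaving out any of 3 single tumours. Rps27l, a relative of a ribosomal protein that stabilises p53, differed by -0.05 ± 0.10 with an interval of -0.26 to 0.15; reads of near-identical ribosomal protein copies could be split differently by the counting, so its level is uncertain.

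Perp, a desmosomal membrane protein that p53 and its relative p63 induce, was high in a handful of tumours. In NC tumours Perp stood at 1.43, 1.53 and 12.5 CPM in sham, 1.61, 1.97 and 1.92 under olaparib alone, 1.22, 24.6 and 0.739 after radiation and 0.387, 1.29 and 44.5 after both. In OE tumours Perp stood at 0.398, 0.301 and 6.79 CPM in sham, 0.475, 0.968 and 0.515 under olaparib alone, 0.539, 0.606 and 0.132 after radiation and 0.557, 34.3 and 0.943 after both. The 5 tumours above 6 CPM, namely S-761, I-736, IO-731, ES-741 and EIO-744, came from irradiated and unirradiated groups alike. In the same 5 tumours Krt5 stood at 32.97, 51.7, 89.2, 9.50 and 107 CPM, and in no other tumour did it pass 3.96. The part of squamous cell content in the Perp values was not tested. The average radiation difference of Perp was 1.37 ± 0.85 (adjusted p = 0.206), between 0.335 without tumour IO-731 and 2.07 without tumour ES-741.

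Of the repair and nucleotide genes 2 of 4 were higher and none lower, a count too small to read against 21.7% of all genes. Polk, a polymerase that copies past damaged bases, went from 28.7 ± 5.28 to 39.0 ± 6.17 CPM (n = 12 each) and rose by 0.45 ± 0.11 (adjusted p = 0.00437). Xpc, which recognises lesions for nucleotide excision repair, went from 14.8 ± 1.39 to 18.6 ± 4.96 CPM and rose by 0.30 ± 0.09 (adjusted p = 0.0177). Without the 3 tumours of unlike composition the change of Xpc was 0.19 ± 0.08 (adjusted p = 0.0633). Its partner in damage recognition, Ddb2, differed by -0.08 ± 0.15 with an interval of -0.37 to 0.21.

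Rrm2b, the p53-inducible subunit of ribonucleotide reductase, was not called. In NC tumours Rrm2b stood at 27.2, 24.1 and 24.0 CPM in sham, 24.9, 27.5 and 30.0 under olaparib alone, 29.6, 29.7 and 29.1 after radiation and 34.5, 25.8 and 33.6 after both. In OE tumours Rrm2b stood at 30.5, 29.3 and 33.2 CPM in sham, 23.5, 21.2 and 29.6 under olaparib alone, 24.4, 24.7 and 27.0 after radiation and 23.5, 19.8 and 28.7 after both. All 24 values lay within a narrow band and the groups overlapped. The difference was 0.02 ± 0.07, its 95% interval was -0.12 to 0.17, and it turned to -0.0067 with scaling by total count.

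Metabolic and stress genes gave 5 of 7 higher and 1 lower, beside 21.7% and 17.5% of all genes. Ak1, adenylate kinase 1, balances ATP, ADP and AMP. In NC tumours Ak1 stood at 74.9, 59.8 and 51.8 CPM in sham, 52.2, 63.1 and 68.2 under olaparib alone, 110.1, 101 and 90.2 after radiation and 109, 112 and 114 after both. In OE tumours Ak1 stood at 81.7, 79.5 and 81.7 CPM in sham, 85.2, 58.7 and 78.9 under olaparib alone, 134, 134 and 126 after radiation and 103, 152 and 163 after both. The lowest irradiated value, in tumour I-739, lay above the highest unirradiated one, in tumour EO-701. The rise was 0.79 ± 0.08 (adjusted p = 8.18e-06).

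Dcxr, a reductase of sugars and dicarbonyl compounds, rose more. In NC tumours Dcxr stood at 15.1, 12.5 and 31.7 CPM in sham, 11.2, 16.6 and 12.9 under olaparib alone, 42.3, 50.4 and 12.7 after radiation and 53.9, 40.2 and 51.2 after both. In OE tumours Dcxr stood at 18.1, 14.6 and 17.0 CPM in sham, 14.2, 12.0 and 13.3 under olaparib alone, 41.1, 43.9 and 32.4 after radiation and 52.9, 58.3 and 35.5 after both. Tumour I-739 was at the unirradiated level, tumour S-761 was the highest of the unirradiated, and the other 11 irradiated tumours exceeded every unirradiated one. The change was 1.45 ± 0.19 (adjusted p = 5.43e-05).

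Sesn2 and Sesn1 encode sestrins, which restrain the growth kinase mTOR under stress. In NC tumours Sesn2 stood at 30.1, 24.1 and 17.1 CPM in sham, 30.8, 43.8 and 30.3 under olaparib alone, 54.8, 58.9 and 40.6 after radiation and 54.9, 56.9 and 65.0 after both. In OE tumours Sesn2 stood at 30.1, 30.4 and 21.1 CPM in sham, 29.7, 28.9 and 28.6 under olaparib alone, 41.7, 60.2 and 44.1 after radiation and 48.5, 43.2 and 62.1 after both. Every irradiated tumour was above the unirradiated median and 9 of 12 were above every unirradiated tumour, the highest of which was O-723. Sesn2 rose by 0.88 ± 0.11 (adjusted p = 3.8e-05). Sesn1 ran from 37.3 to 66.3 CPM without and 25.7 to 141 with radiation and rose by 0.52 ± 0.20 (adjusted p = 0.0462), a call lost on leaving out any of 18 single tumours.

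Fdxr, the mitochondrial ferredoxin reductase that supplies electrons for iron-sulphur cluster and steroid synthesis, was lower. In NC tumours Fdxr stood at 21.4, 20.1 and 21.7 CPM in sham, 18.5, 13.3 and 17.8 under olaparib alone, 13.2, 11.2 and 17.4 after radiation and 13.8, 13.0 and 15.3 after both. In OE tumours Fdxr stood at 17.9, 17.6 and 17.8 CPM in sham, 15.6, 16.0 and 15.9 under olaparib alone, 12.8, 11.0 and 12.3 after radiation and 12.3, 12.9 and 12.5 after both. All 12 irradiated tumours were below the unirradiated median and 9 were below every unirradiated tumour. Fdxr fell by 0.43 ± 0.07 (adjusted p = 0.000451), and in human blood it is known as a gene that radiation raises.

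Tigar, a phosphatase that slows glycolysis, was not called. In NC tumours Tigar stood at 16.0, 13.4 and 9.11 CPM in sham, 14.4, 8.76 and 13.5 under olaparib alone, 15.0, 10.3 and 12.6 after radiation and 11.6, 13.9 and 11.9 after both. In OE tumours Tigar stood at 13.4, 13.5 and 12.7 CPM in sham, 12.4, 14.9 and 12.2 under olaparib alone, 11.0, 12.3 and 16.0 after radiation and 12.8, 10.2 and 15.6 after both. Groups overlapped, and the difference of -0.01 ± 0.11 (interval -0.24 to 0.21) turned to 0.0015 with DESeq2's size factors. Ddit4l, a stress gene that inhibits mTOR, was scarce. NC sham tumours held 0, 1 and 0 of its reads, the other unirradiated tumours 1 to 149, and irradiated tumours 16 to 656, with the highest counts in tumours EIO-744 and I-732. Its fitted change of 3.22 ± 0.87 (adjusted p = 0.00826) depends on the handling of near-zero counts, ran from 2.28 to 4.35 as single tumours were left out, and was 1.71 ± 0.79 (adjusted p = 0.0986) without the 3 tumours of unlike composition.

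Per kilobase of exon, the level before radiation differed more between members than radiation changed most of them. In unirradiated tumours Rps27l was highest at 210.5 CPM per kb, followed by Ccng1 at 93.5, Cdkn1a at 75.3, Phlda3 at 55.6 and Trp53 at 48.9. Mdm2 stood at 36.0 and Mdm4 at 4.02 CPM per kb, while Perp at 1.30 and Ddit4l at 0.263 were lowest. Cdkn1a lies at chr17:29090979-29100722, Mdm2 at chr10:117688875-117710758, Trp53 at chr11:69580348-69591873 and Fdxr at chr11:115268024-115277101 (mm10). The spans of 9 of the 33 overlap another gene of the table, among them Ddb2 with Acp2 and Plk3 with Tctex1d4, and their reads may be shared because the strand setting of the counting is not given in the sources used here.

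**Figure D3:**
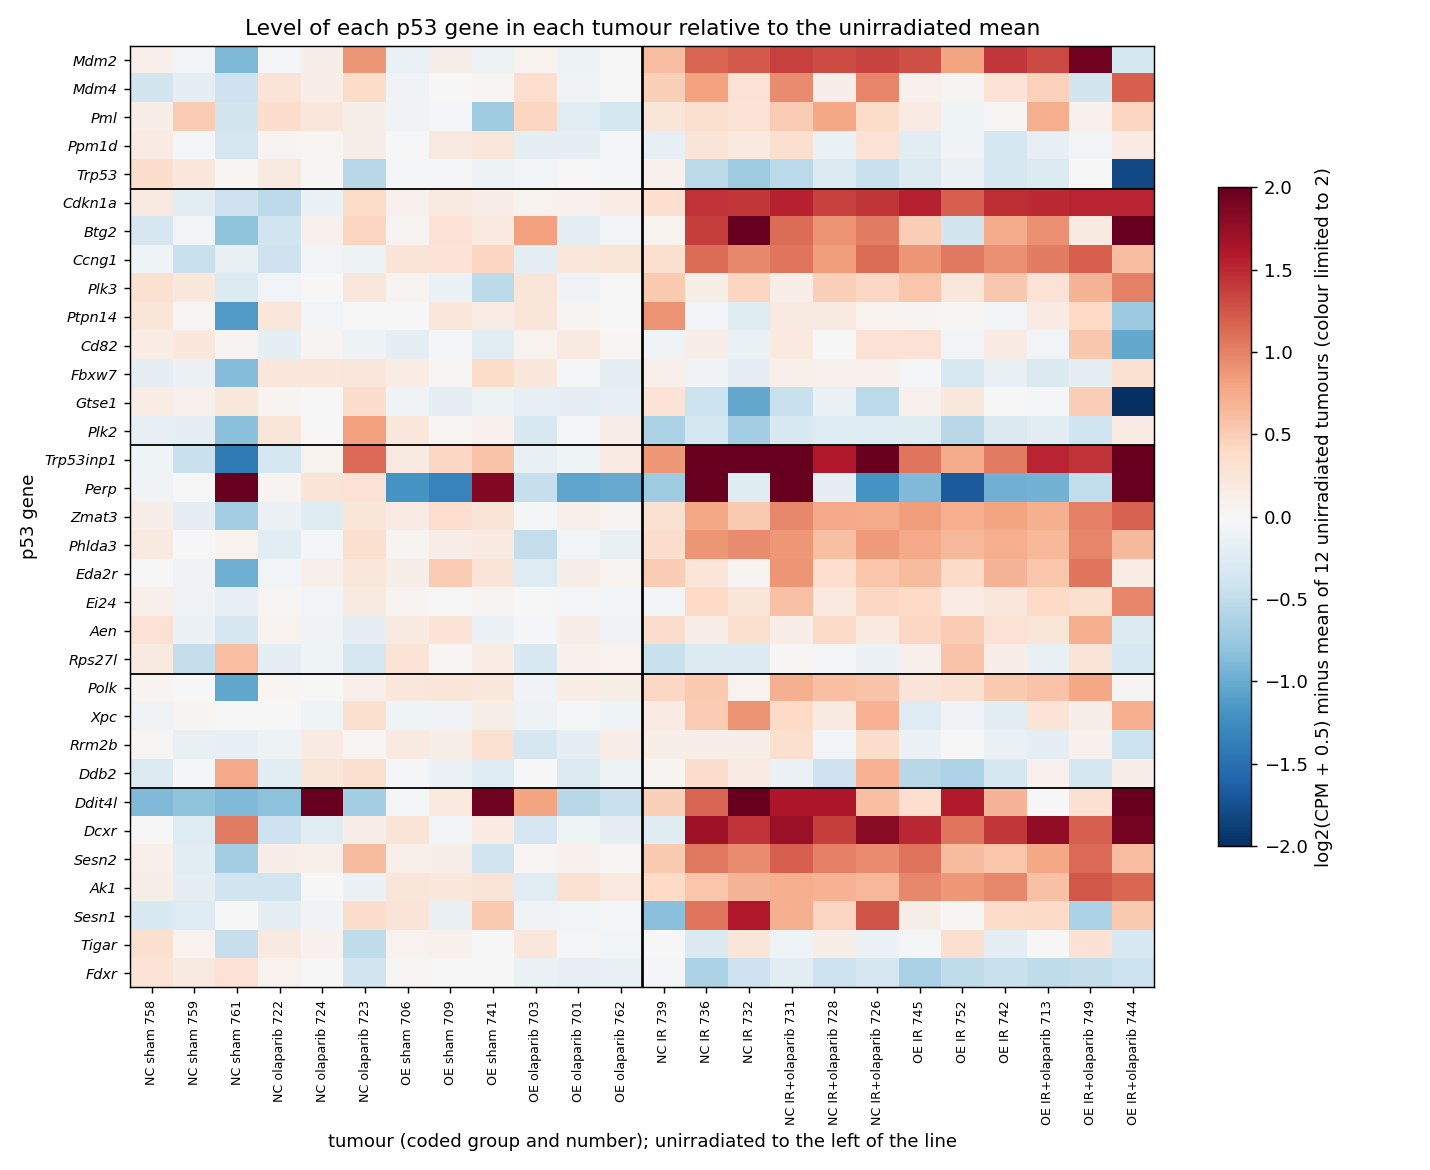
Log2(CPM + 0.5) of each p53 gene (rows, grouped by role) in each of the 24 tumours (columns) minus the mean of the 12 unirradiated tumours, with colour limited to 2. Cdkn1a, Ccng1, Zmat3, Phlda3, Dcxr, Sesn2 and Ak1 are red through most of the irradiated columns, tumour I-739 is pale there, and tumour EIO-744 is dark blue for Trp53 and Gtse1.

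NC tumour I-739, irradiated by code and by written label, stood near the unirradiated tumours for many members. It had Cdkn1a at 332, Trp53inp1 at 62.8, Dcxr at 12.7 and Fdxr at 17.4 CPM. The proliferation gene Mki67 stood there at 379.7 CPM, against 21.5 to 335 in the other irradiated and 365 to 459 in unirradiated tumours, and the summed macrophage level was 2608 CPM, the lowest of all 24. Without tumour I-739, 19 p53 genes were called higher and 3 lower, where 43.6% of the 17026 genes tested were called in either direction. Conversely the unirradiated NC tumour O-723 (olaparib) was the highest unirradiated tumour for Cdkn1a, Mdm2, Phlda3, Trp53inp1 and Sesn2.

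Of the 8 tumours whose labels disagree on radiation, 4 are irradiated by code and unirradiated by written label (EI-742, EI-752, IO-728 and EIO-749), and 4 are the reverse (EO-701, EO-703, O-724 and S-759). Cdkn1a stood at 734, 603, 682 and 761.5 CPM in the first 4 and at 281, 276, 241 and 229 in the others. For 13 of the 33 genes all 4 coded irradiated tumours were above all 4 coded unirradiated ones, against 7.54% of all genes. For Fdxr and Ddb2 all 4 were below, against 7.42% of all genes. Among the 13 were Mdm2, Ccng1, Phlda3, Eda2r, Zmat3, Aen, Polk, Ei24, Dcxr and Ak1. The choice of the code settled the radiation status of these 8 tumours, and it was made with p53 target levels in view. Their separation is therefore no independent support for the code.

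In the 16 tumours whose labels agree on radiation (8 against 8, with terms for cell line and olaparib by code), 15 p53 genes were higher and 2, Fdxr and Plk2, were lower. Over the 17970 genes tested there, 15.4% were higher and 13.6% lower. Cdkn1a differed by 1.31 ± 0.17 (adjusted p = 0.00073), Mdm2 by 0.96 ± 0.24 and Fdxr by -0.46 ± 0.13, close to the values over all 24 tumours. The calls on Sesn1, Eda2r, Aen, Xpc, Polk and Trp53 did not pass there. By the written label alone edgeR called none of the 33, beside 0.00604% of all genes. By that label 8 were higher and 1 lower at an unadjusted p below 0.05, beside 2767 and 2332 of all 16560 genes. The median difference was 0.15, against 0.03 over all genes. Cdkn1a differed by 0.39 ± 0.19 and Trp53inp1 by 0.96 ± 0.28. The DESeq2 test was run with the coded groups only.

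Radiation was then compared in 4 strata that share no tumour, each with 3 irradiated and 3 unirradiated tumours. In NC tumours 10 p53 genes were higher and 1 was lower, with backgrounds of 4.61% and 5.4% of all genes. The 10 were Cdkn1a, Mdm2, Mdm4, Ccng1, Phlda3, Zmat3, Trp53inp1, Sesn2, Ak1 and Ddit4l, and Fdxr was the lower one. This list rested on single tumours, as did the calls over all genes. It came to 7 without tumour S-758 (1.59% of all genes called) and 4 without I-736 (1.58%). It came to 0 without S-761 (0.0176%), without I-732 (0.0118%) or with the spread taken from the groups compared alone (0%). It was also 0 without the 3 tumours of unlike composition. In OE tumours Cdkn1a was the 1 gene called, higher by 1.27 ± 0.24 (adjusted p = 0.0316), and the background was 0.181% higher and 0.0664% lower. That list came to 10 without the 3 tumours of unlike composition (6.52% of all genes), 5 without tumour I-739 (1.69%) and 4 without EIO-744 (2.35%). It came to 0 without O-724, ES-706, ES-709, ES-741, EO-762, EI-742 or EI-745, where at most 0.123% of all genes were called. DESeq2 called 7 higher and 1 lower, beside its own 2.39% and 1.5% of all genes.

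Under olaparib the same comparison gave 7 higher and none lower in NC tumours, with backgrounds of 0.821% and 0.634%. They were Cdkn1a, Ccng1, Phlda3, Zmat3, Trp53inp1, Dcxr and Ak1, and DESeq2 called 8 higher and 1 lower, beside its own 4.4% and 4.23% of all genes, so the 1 lower is near that share. Without single tumours the count fell to 0 (O-722 or IO-731, 0.0995% and 0.00588% of all genes), 1 (IO-726, 0.0586%), 2 (O-724, 0.252%) or 3 (IO-728, 0.34%). It was 4 without S-759, O-723, ES-706, ES-709, ES-741, EO-701, EI-742 or EI-745, where 0.158% to 0.492% of all genes were called. Without the 3 tumours of unlike composition it was 13, beside 16.2% of all genes. In OE tumours under olaparib 9 were higher and none lower, with backgrounds of 5.4% and 1.37%. These added Sesn2 and Ei24 to the 7 just named. The count was 2 without tumour EO-701 (0.158% of all genes), 0 without EO-703 (0.158%) and 1 without EO-762 (0.146%). It was 0 with the spread taken from the groups compared alone (0%). DESeq2 called 14 higher and none lower, beside its own 11% and 3.51% of all genes.

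Cdkn1a was called in all 4 strata, between 1.27 ± 0.24 and 1.495 ± 0.24. Ccng1, Phlda3, Zmat3, Trp53inp1 and Ak1 were called in 3, all but OE tumours without olaparib. In sign, 17 of the 33 genes (51.5%) were above 0 in all 4 strata, against 22.8% of all tested genes, and 3 (9.09%) were below 0 in all 4, against 20.6%. Mdm2 was called in NC tumours only, yet its differences ran from 0.96 to 1.25, and Aen was called in none with differences of 0.27 to 0.31. The widest spread among called members outside Ddit4l was in Trp53inp1, at 2.80 ± 0.48 in NC and 0.57 ± 0.45 in OE tumours.

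**Figure D4:**
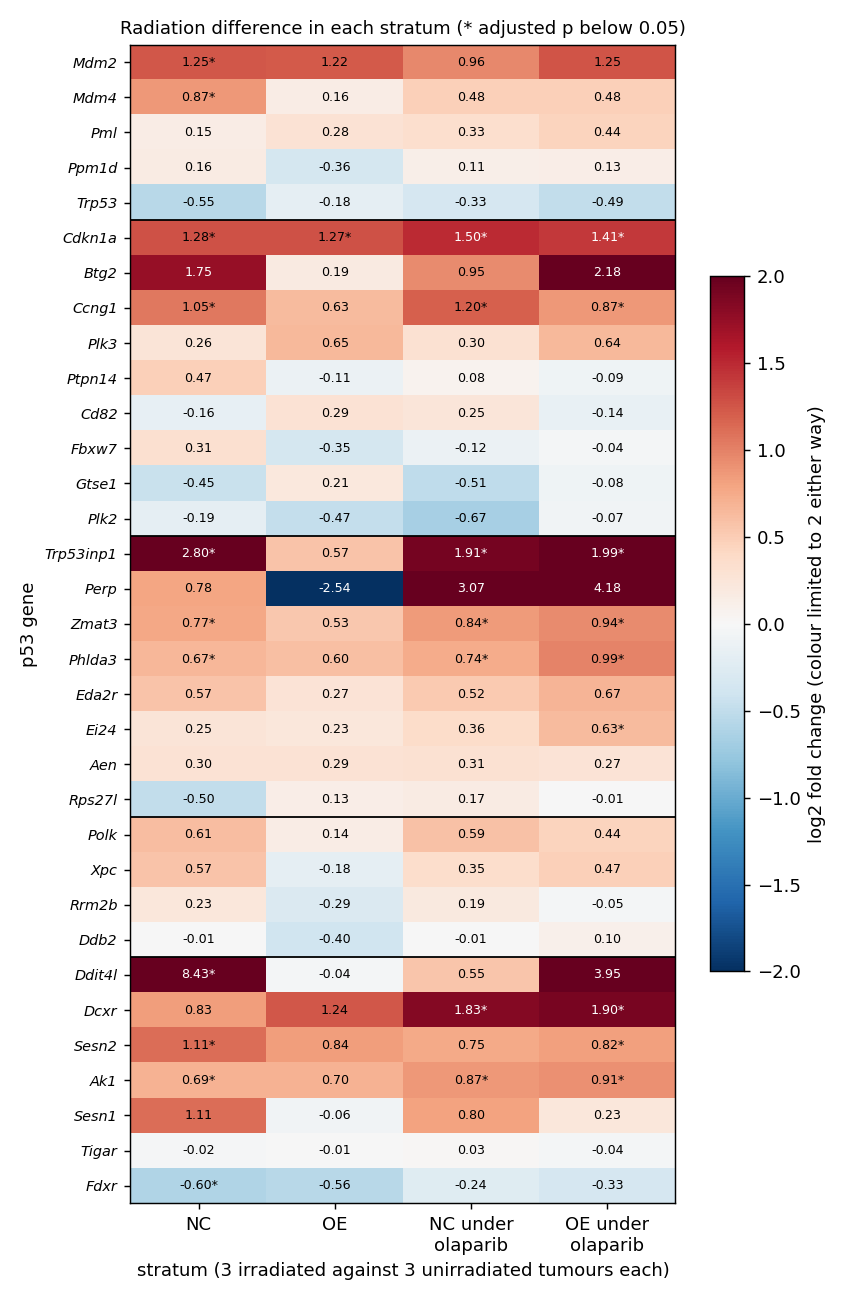
Log2 fold change of each p53 gene (rows, by role) between 3 irradiated and 3 unirradiated tumours in each of 4 strata (columns), printed in each cell, with an asterisk at an adjusted p below 0.05 and colour limited to 2. Cdkn1a is between 1.27 and 1.495 in every column, Fdxr is below 0 in every column, and the OE column without olaparib has 1 asterisk.

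Whether the radiation change differed between the cell lines was tested directly, as the change in OE minus that in NC averaged over olaparib. None of the 33 genes was called by edgeR, beside 0.00604% of all genes, and 3 had an unadjusted p below 0.05, all with a smaller value in OE. They were Rrm2b (-0.38 ± 0.15), Trp53inp1 (-1.07 ± 0.45) and Sesn1 (-0.87 ± 0.40), with adjusted p of 0.336, 0.372 and 0.419. DESeq2 also called none, beside 1.43% of all genes. At an unadjusted p below 0.05 it gave 0 higher and 3 lower, beside 1258 and 896 of all 16560 genes. For Cdkn1a the difference was -0.04 ± 0.24, with a 95% interval of -0.51 to 0.42. The radiation change under olaparib minus that without it was called for none of the 33 by edgeR or DESeq2, beside 0% and 0.0423% of all genes. At an unadjusted p below 0.05 edgeR gave 2, Perp (4.51 ± 1.73) and Dcxr (0.83 ± 0.37), and for Cdkn1a the interval was -0.29 to 0.64. DESeq2 gave 1 higher and 0 lower at that p, beside 434 and 240 of all 16560 genes.

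With groups read by code, olaparib changed none of the p53 genes past the threshold. In unirradiated tumours (6 against 6, both cell lines) edgeR called 0 of 33, beside 0% of all genes, with 1 higher and 1 lower at an unadjusted p below 0.05, and DESeq2 called 0, beside 0.0302% of all genes. The 2 in edgeR's test were Sesn2, at 0.33 ± 0.15, and Fdxr, at -0.26 ± 0.11. At that unadjusted p DESeq2 gave 2 higher and 1 lower, beside 276 and 311 of all 16560 genes. Cdkn1a differed by 0.02 ± 0.17 (interval -0.31 to 0.35) and Mdm2 by 0.32 ± 0.27 (interval -0.21 to 0.84). Added to radiation, olaparib likewise gave 0 called by edgeR and DESeq2, beside 0% and 0.00604% of all genes, and 3 higher at an unadjusted p below 0.05. These were Ei24 (0.27 ± 0.11), Perp (2.80 ± 1.25) and Pml (0.35 ± 0.16). At that p DESeq2 gave 3 higher and 0 lower, beside 1172 and 357 of all 16560 genes. In edgeR's fit the signs leaned up, with 26 of 33 above 0 and a median of 0.14. Over all genes 8683 of 16560 were above 0 and the median was 0.01. Cdkn1a was at 0.20 ± 0.17 (interval -0.13 to 0.53).

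The average over cell lines held unlike values in unirradiated tumours (3 against 3 in each line). In NC tumours olaparib went with 20 of 33 genes above 0 and a median of 0.10, and 6 were higher and 1 lower at an unadjusted p below 0.05, beside 715 and 887 of all 16560 genes. In OE tumours 23 of 33 were below 0 with a median of -0.12, and 0 were higher and 2 lower at that p, beside 143 and 197 of all genes. Among them were Plk2 at 0.76 ± 0.21 and Fbxw7 at 0.58 ± 0.19 in NC and Phlda3 at -0.34 ± 0.16 and Rrm2b at -0.32 ± 0.15 in OE tumours. None of the 33 was called in either line by edgeR (0% of all genes in both) or DESeq2 (0.139% in NC and 0.0181% in OE). The difference between the lines, OE minus NC, was tested after these values were seen, and edgeR called 0 of 33, beside 0% of all genes, with 0 higher and 6 lower at an unadjusted p below 0.05. DESeq2 called 0 as well, beside 0.332% of all genes. At that unadjusted p it gave 0 higher and 6 lower, beside 634 and 885 of all 16560 genes. Without NC sham tumour S-761 edgeR's counts at that p were 3 higher and 0 lower in NC tumours, beside 344 and 148 of all 16560 genes. For the difference they were 0 and 3, beside 173 and 536.

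Overexpression of miR-21-5p went with no called change of these genes on average over the 4 treatments (12 OE against 12 NC tumours by code). EdgeR called 0 of 33, beside 0.453% of all genes, with 3 higher and 5 lower at an unadjusted p below 0.05. The smallest p was that of Ak1, at 0.34 ± 0.08 (adjusted p = 0.0621 in edgeR's test). DESeq2 called Ak1 alone, 1 of 33 beside its own 3.79% of all genes, so the call is at the share of any gene. At an unadjusted p below 0.05 DESeq2 gave 4 higher and 3 lower, beside 1378 and 1464 of all 16560 genes. Ak1 was also called by edgeR without tumour EO-703, EIO-713 or EIO-744 (0.615%, 0.586% and 4.96% of all genes), or without the 3 tumours of unlike composition (4.99%). Next came Ddb2 at -0.40 ± 0.15 and Zmat3 at 0.23 ± 0.09. Trp53 differed by -0.05 ± 0.15 (interval -0.34 to 0.25) and Cdkn1a by 0.18 ± 0.12 (interval -0.05 to 0.42).

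By treatment (3 OE against 3 NC tumours) the medians of the OE difference lay on both sides of 0. In sham tumours 22 of 33 genes were above 0 in OE with a median of 0.19, beside -0.05 over all genes, and 9 were higher and 0 lower at an unadjusted p below 0.05, beside 1007 and 1058 of all 16560 genes. They included Ccng1 at 0.54 ± 0.19, Fbxw7 at 0.55 ± 0.19 and Zmat3 at 0.48 ± 0.18. Without tumour S-761 these counts were 3 and 1, beside 695 and 278 of all 16560 genes, and the median was 0.15. At the same p there were 0 higher and 1 lower under olaparib, 2 and 4 after radiation, and 1 and 1 after both. DESeq2 gave 0 and 1 under olaparib, beside 279 and 459 of all 16560 genes. For tumours given radiation it gave 2 and 4, beside 1418 and 1980. For both treatments it gave 2 and 1, beside 1360 and 489. After radiation Trp53inp1 was at -1.27 ± 0.46 and Xpc at -0.76 ± 0.19 (adjusted p = 0.0803 in edgeR's test). EdgeR called 0 of 33 in each treatment, beside 0.0845% of all genes after radiation and 0% in the other 3.

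DESeq2 called Ddit4l alone in sham tumours (2.27% of all genes), Xpc alone after radiation (4.79%), and none under olaparib (0.0423%) or after both (0.833%). The OE difference after radiation minus that in sham, also tested after these values were seen, was called for 0 of 33 by edgeR, beside 0% of all genes, with 1 higher and 6 lower at an unadjusted p below 0.05. DESeq2 called Trp53inp1 and Ddit4l lower there, 2 of 33 beside 3.7% of all genes. At an unadjusted p below 0.05 it gave 1 higher and 7 lower, beside 1604 and 1724 of all 16560 genes. The OE and olaparib differences in sham share the 3 NC sham tumours.

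The microRNA and the 2 members whose longest annotated 3′ UTR (GENCODE vM21) holds a match to its seed are printed to show what pairing the sequence allows. Capitals mark the seed, bases 2 to 8 of the microRNA, and its complement in the message.
miR-21a-5p (RefSeq, GRCm38.p6): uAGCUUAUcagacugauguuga
Ptpn14 site: gctaatgcatgATAAGCTatctatccaac
Mdm4 site: cagagtcagagATAAGCTaagagggcaag
A seed match stands in 2 of the 33 UTRs (6.06%), against 7.69% of 17395 genes with an annotated UTR. In OE against NC tumours Ptpn14 differed by -0.01 ± 0.15 (adjusted p = 0.979) and Mdm4 by -0.11 ± 0.14 (adjusted p = 0.753), both within their error of 0.

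**Figure D5:**
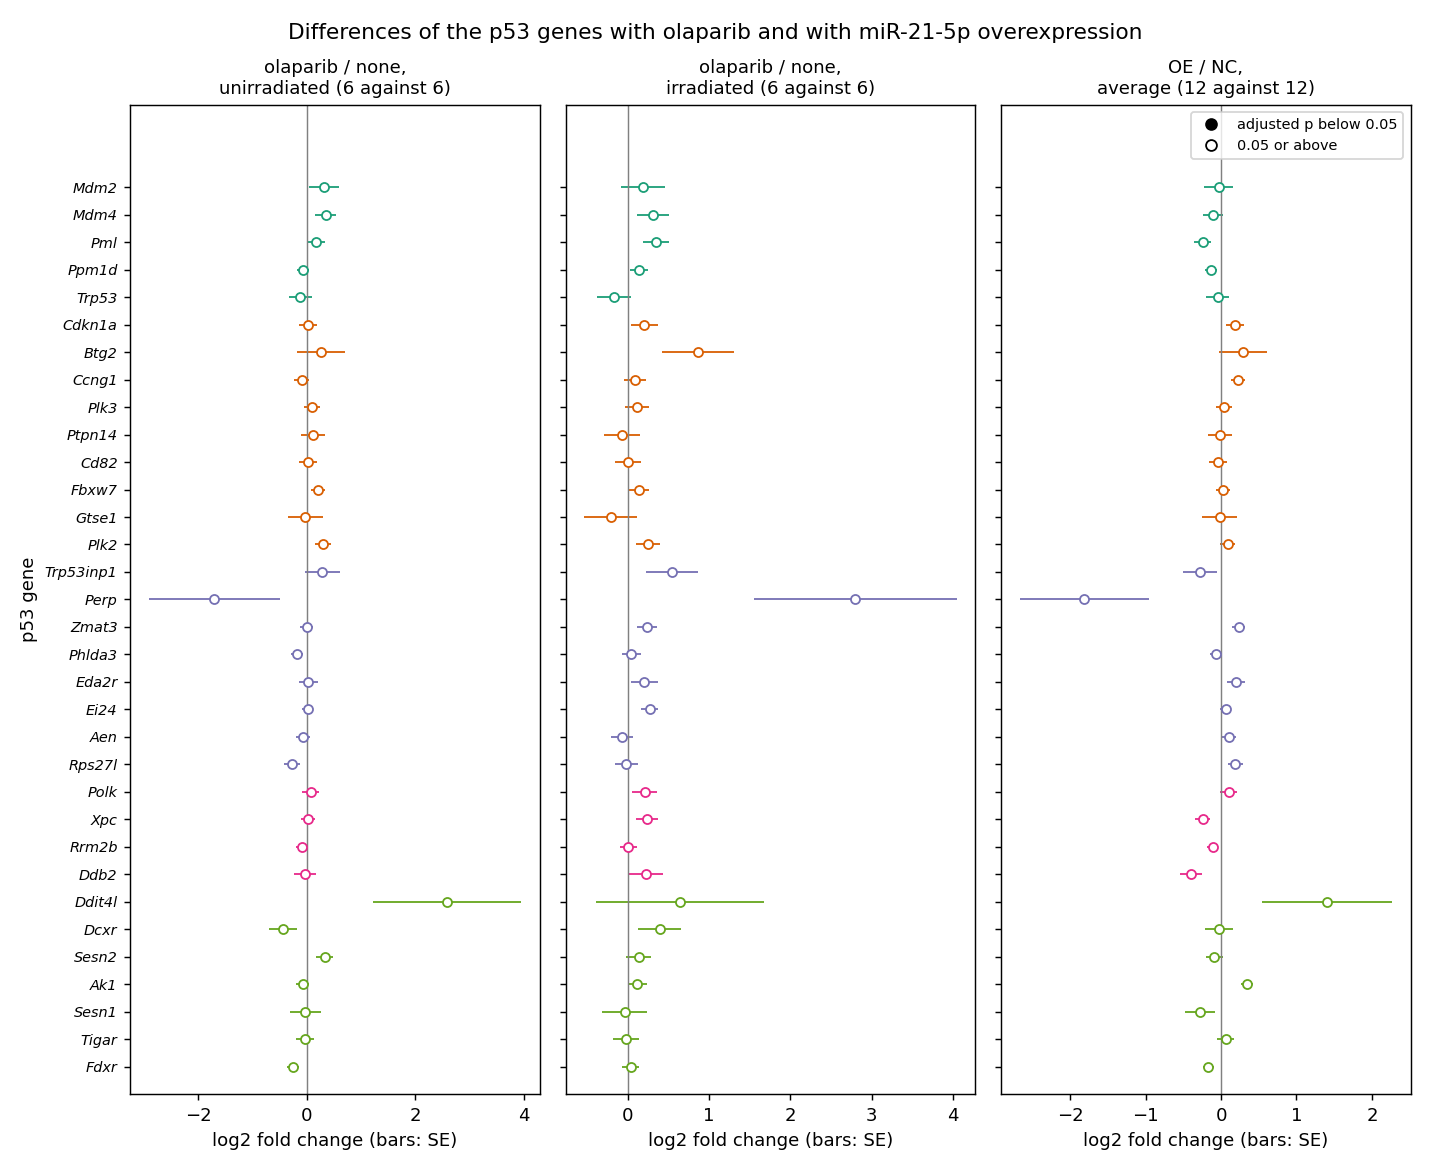
Log2 fold changes with SE bars of the 33 p53 genes (rows) for olaparib in unirradiated tumours, olaparib in irradiated tumours and OE against NC (panels). All points are open, since none passed an adjusted p below 0.05, and Perp and Ddit4l have the widest bars in each panel.

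Further genes of the pathway came from lists chosen with earlier results known. Their counts are to be read against 21.7% of all genes called higher and 17.5% lower after radiation. Of 30 other p53 targets 19 were higher after radiation and none lower, with a median of 0.68. They included Fas, a death receptor, at 1.49 ± 0.17, Gdf15, a stress cytokine, at 3.06 ± 0.39, Slc19a2, a thiamine transporter, at 0.52 ± 0.08, and Abhd4, a lipid hydrolase, at 0.86 ± 0.14. Bax, which opens the mitochondrial membrane in apoptosis, was at 0.36 ± 0.07. Of 22 genes upstream of p53, a mixed list of kinases, cofactors, ubiquitin enzymes, ribosomal proteins and others, none was higher and 10 were lower, with a median of -0.11. Among them were the checkpoint kinase gene Chek2 at -0.37 ± 0.08 and the ribosomal protein genes Rpl5 and Rpl11, whose products can bind MDM2, at -0.49 ± 0.10 and -0.51 ± 0.12. Cdkn2a, whose product ARF also restrains MDM2, was at -1.73 ± 0.41 with levels of at most 4.13 CPM.

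The DREAM complex, through which p21 silences cell cycle genes, had 6 of 11 subunit genes lower and 1 higher. Of all genes 17.5% were called lower and 21.7% higher. Rbbp4, Lin9, Lin54 and E2f4 were at -0.51 ± 0.07, -0.70 ± 0.13, -0.42 ± 0.10 and -0.39 ± 0.09, and Rbl2, the pocket protein of resting cells, was the one that rose, by 0.27 ± 0.09. Of 18 genes known to be silenced by this route 16 were lower and none higher, beside the same shares, with a median of -1.05. They included the mitotic kinase gene Aurkb at -1.27 ± 0.26, Mybl2, a driver of late cell cycle genes, at -1.52 ± 0.32, Plk4, the kinase of centriole copying, at -0.97 ± 0.23, and Mki67 at -1.27 ± 0.29.

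Markers of other cell types are to be read against 21.7% of all genes called higher and 17.5% lower after radiation. Macrophage markers were higher for 7 of 8 genes, with summed levels of 2608 to 18665 CPM in irradiated and 4754 to 13398 in unirradiated tumours. All 6 tested neutrophil markers were higher, with sums of 26.6 to 451 against 20.7 to 50.4 CPM and Ly6g, a defining one, at 0 in 14 tumours. T cell markers were lower for 5 of 6 tested, with sums of 16.2 to 90.7 against 32.8 to 271 CPM. Fibroblast markers were higher for 2 of 7 genes (3936 to 126715 against 3039 to 6149 CPM), skeletal muscle for 5 of 7 (26.7 to 13761 against 11.3 to 1285 CPM), and endothelium for 1 of 6 (110.2 to 1079 against 95.4 to 234 CPM), so the fibroblast and endothelial counts were near the share of any genes. Erythroid markers were called for none of 5 by edgeR, with none at an unadjusted p below 0.05 and sums of 26.3 to 508 against 42.8 to 816 CPM. Of 10 squamous tumour markers 3 were higher and 1, Krt18, was lower, with sums of 288 to 1539 against 643 to 1669 CPM. The part of these changes in the p53 gene results was not tested. In tumour EIO-744, where Krt8 and Krt18 were near 0, Cdkn1a stood at 756, Ak1 at 152 and Dcxr at 58.3 CPM, as high as in the other irradiated tumours, and Mdm2 at 139 CPM, within the unirradiated range.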

How the data were processed

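RNA-seq of whole tumours from total RNA was analysed as raw counts per gene, which the authors deposited as 1 table of 27368 genes by 24 tumours. Reads were processed with fastp, HISAT2 and HTSeq against mm10, per the submitters' processing notes, and their settings, including strand, are not given in the sources used here. Total counts ran from 37099055 to 40004502 per tumour. Groups followed the letters of the coded identifier, with 3 tumours each. Identifier numbers name tumours and pair none across groups. Nothing says how separately the tumours were handled, so p-values measure the spread between these tumours.

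Counts were fitted with edgeR 4.0.16 (limma 3.58.1, R 4.3.3) by quasi-likelihood, with filterByExpr, TMM scaling and 1 coefficient for each of the 8 groups, and p-values were adjusted by Benjamini-Hochberg over 16560 genes. Fold changes carry an SE derived from the fold change and its F statistic. The 95% intervals are 1.96 SE to each side, a normal approximation that is somewhat narrower than the F-test would give. DESeq2 1.42.0 was an alternative, as were DESeq2's size factors in edgeR, total count scaling, no low-count filter, the written labels, fewer groups, an additive model, tumours with agreeing labels, and leaving out each tumour. Leaving out the 3 tumours of unlike composition was added after seeing the data, as were 2 interaction contrasts for the olaparib and OE effects. The script was tested on simulated data. Cell type marker sums add CPM over each list. Heatmap values use a pseudocount of 0.5.

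The members, the gene lists and the tests were chosen with earlier results of these data known. Every member is named with its average radiation change. Values in every tumour are given for the 8 members with the smallest adjusted p, for Trp53, Mdm4, Fbxw7, Perp, Gtse1 and Ppm1d, and for members whose sign turns under another scaling. Of the other pathway lists up to 4 genes with the smallest p are named, plus Fas, Bax, Cdkn2a and Mki67. Tumour values for Mdm2 and Fdxr and the naming of Rbl2 were chosen after their values were seen.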

Additional observations from a re-analysis of the deposited data

How the results depend on the processing

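The averaged counts of 20 higher and 3 lower p53 genes moved by at most 1.5 times under every coded alternative, including leaving out each tumour (17 to 20 and 2 to 3), and both were 0 by the written labels. Those labels also gave 0 in each of the 4 strata. With only the groups compared, the strata gave 0 in NC, 11 in OE (14.4% of all genes), 11 in NC under olaparib (14.6%) and 0 in OE under olaparib. Without the 3 tumours of unlike composition they gave 0 in NC, 10 in OE and 13 in NC under olaparib, and OE against NC gave 1. DESeq2 gave 8 in OE, 14 in OE under olaparib and 1 for OE against NC. Total count scaling gave 0 in OE (0.109% of all genes), and no filter gave 4 in NC under olaparib (0.303%). Leaving out 1 tumour gave 0 to 15 in NC, 0 to 5 in OE, 0 to 10 in NC under olaparib, 0 to 11 in OE under olaparib and 0 to 1 for OE against NC. The share of all genes called moved as well, in NC to 0.0118% without I-732 and to 21.9% without I-739. The cause was not tested. Signs turned for Aen (-0.0646), Fbxw7 (0.0789), Rrm2b (-0.0446) and Ddb2 (0.19) by the written labels, and for Rrm2b (-0.0516), Ddb2 (0.0033) and Ppm1d (-0.002) where labels agree. They turned for Rrm2b (-0.0067) and Ppm1d (-0.0283) under total count scaling, for the same pair without the filter (-0.003 and -0.0163), for Tigar with DESeq2's size factors (0.0015) and test (0.0014), and for Rps27l (0.0303) and Ppm1d (-0.0678) without the 3 tumours. Leaving out 1 tumour gave -0.016 to 0.0548 for Rrm2b, -0.0322 to 0.162 for Ptpn14, -0.0421 to 0.127 for Cd82, -0.0524 to 0.0474 for Ppm1d and -0.0858 to 0.0436 for Tigar. Of these genes only Aen was called. No paired analysis was possible because the identifier numbers pair no tumours across groups. Depth was alike in all libraries, and low counts limit Ddit4l and Perp most.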
